A study of Oryza sativa with 36 samples.

Results

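The PP2C phosphatases are the type 2C protein phosphatases, which in rice form a large gene family numbered OsPP2C01 upwards. Every probe set that the array annotation tied to a single gene was taken when a symbol or synonym of that gene, with or without the prefix Os, was PP2C followed by a number. This gave 72 probe sets of 55 genes, out of 57194 probe sets on the array and 22436 with 1 annotated gene. The rule used gene names and no measured value, but it was set with earlier results of these data known.

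A PP2C removes phosphate groups from serine and threonine residues, needs magnesium or manganese ions, and works as a single polypeptide without regulatory subunits. The members of clade A are the best known in plants. Without abscisic acid (ABA), the drought hormone, they hold certain kinases of the SnRK2 family (called SAPK in rice) inactive. When ABA binds a receptor of the PYR/PYL/RCAR family, the receptor blocks the phosphatase, the kinase is released, and it phosphorylates bZIP transcription factors that switch on dehydration genes. Transcripts of many clade A genes themselves increase under ABA, which makes them a feedback arm of the pathway. Other clades act on mitogen-activated protein (MAP) kinases or on receptor kinases of immunity, and for many rice members no role is settled.

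The study compared Rathu Heenati (RH), an indica variety resistant to the brown planthopper (BPH, a phloem-sucking insect), with Taichung Native 1 (TN1), a susceptible indica variety. Seedlings were 2 weeks old, each biological replicate was a pot of 10 seedlings, and shoots were hybridised to the Affymetrix rice genome array, 1 array per replicate and 36 arrays in all. The groups, with 3 arrays each, were BPH infestation (R24P, R6P, T24P, T6P), needle puncturing (R24N, R6N, T24N, T6N) and natural growth without treatment (R24C, R6C, T24C, T6C), where R is RH, T is TN1 and the number gives the hours after treatment. Infested pots carried about 100 nymphs, or 10 per seedling, from a colony kept on TN1 that mixed biotypes, and punctured plants were pricked 15 times each. All values are intensities on a linear scale, already normalized by the authors, and changes are log2 fold changes of the first over the second group named.

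Array medians lay between 35.8 and 39.8, and within-group correlations across probe sets were at least 0.9877. The lowest of these correlations was that of T24P replicates 1 and 2, so many of the counts and named calls that rest on T24P are also given without T24P replicate 1. Where no such value is given, how far the result rests on that array is not shown. As a check of the tissue, 10 probe sets of 5 green-tissue genes were read. Both sets of CAB2R, the set of PSAH and 1 set of RBCS lay between 9750 and 20900 on all arrays, 2 sets of PSAG and RBCS between 398 and 4840, another RBCS set between 311 and 616, a second PSAG set between 51.1 and 92.2, and RBCS-A and the remaining RBCS set between 8.59 and 29.2. Probe sets of the seed storage proteins lay between 4.36 and 59.2, apart from 1 set of GLUA-2 at 203 to 730. No detection calls came with the data, so whether a signal near or under the array medians exceeds background is unknown.

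The members covered a wide range of intensities, and most changed little under any condition. Mean intensity over the 36 arrays ran from 7.38 for an OsPP2C48 set to 1990 for OsPP2C14, with a median of 316. It lay above all array medians for 61 of the 72 probe sets, and at or under the highest of them for 11. A probe set was called differential at an adjusted p under 0.05 (limma, Benjamini-Hochberg over all 57194 probe sets) with at least a 2-fold change. Over the 24 comparisons of 2 groups that differed in treatment, variety or time, 18 of the 72 sets passed at least once and 54 never did. Over the whole array the share passing at least once was 16.3%.

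The first comparison asked how the family responded to feeding insects. In TN1 at 24 h, 7 members rose and none fell. The count was 4 to 10 with 1 array left out, and 2 by the one-way ANOVA of the study's methods after adjustment. They were OsPP2C68, OsPP2C09 and OsPP2C30 of clade A and, outside it, OsPP2C59, OsPP2C02, OsPP2C12 and OsPP2C48. In whole shoots a change in the number of cells of a type and a change in RNA per cell cannot be told apart. In RH at 24 h OsPP2C30 was the single member called, at the threshold of 2-fold, and at 6 h no member was called in either variety. The share of all probe sets called higher was 3.53% in T24P/T24C, where the members' share was 9.72%, and 0.956% in R24P/R24C, where the members' share was 1.39%. The shares called lower over the array were 3.13% and 0.254% in the same comparisons. Among probe sets with a mean above all array medians, 5.85% were higher in T24P/T24C, where 7 of the 61 such members were.

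**Figure D1:**
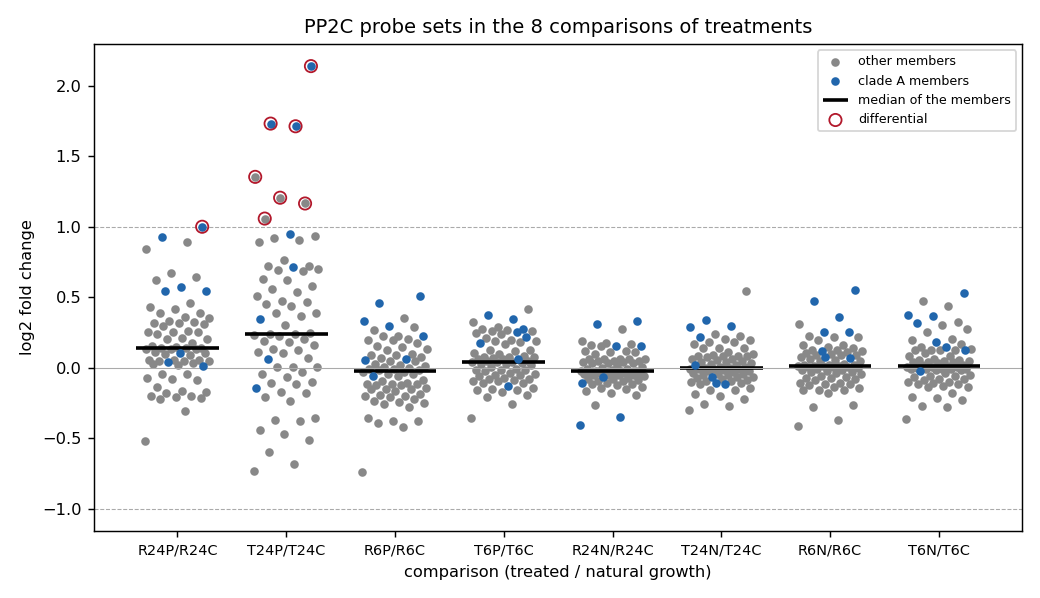
Log2 fold change (vertical axis) of each of the 72 PP2C probe sets in the 8 comparisons of a treatment with natural growth (horizontal axis); blue points are clade A members, red rings mark differential probe sets, black bars the median of the members and dashed lines a 2-fold change. The 7 ringed members of T24P/T24C lie between 1.06 and 2.14, and no member is ringed in the comparisons at 6 h or after puncturing.

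Members as a group sat slightly above the array in both varieties at 24 h. The members were brighter, with 61 of 72 above all array medians, against 28439 of 57194 probe sets. The medians and shares given next were not matched for brightness. Their median log2 fold change was 0.14 in R24P/R24C, against −0.03 over all probe sets, and 0.24 in T24P/T24C, also against −0.03. The TN1 median was 0.20 without T24P replicate 1, against −0.02 over all probe sets. Without the 2-fold minimum, 19 members were higher and 1 was lower in R24P/R24C (8.83% and 6.23% of all probe sets), and 34 were higher and 9 lower in T24P/T24C (15.4% and 14.9%). Leaving out T24P replicate 1, the TN1 counts were 28 and 7 (12.8% and 12% of all probe sets). The members higher in both varieties numbered 14, which was 73.7% of the RH set and 41.2% of the TN1 set, near the 76.4% and 43.8% found over all probe sets. The fold change was the larger in TN1 in 92.9% of these members and in 79% of such probe sets over the array.

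OsPP2C68 (PP2C68 in the annotation) is a stress-induced clade A member also called SIPP2C1. Its intensities were 847, 185 and 273 in T24P, against 63.5, 73.8 and 106 in T24C. The infested arrays all lay above the untreated ones, with T24P replicate 1 far above the other 2. The log2 fold change was 2.14 ± 0.33 (SE, limma adjusted p = 3.73e-06), and it was 1.50 without T24P replicate 1. In RH the values were 84.9, 76.8 and 119 in R24P, against 48.9, 49.1 and 47.1 in R24C, groups that did not overlap. That log2 fold change of 0.93 did not pass the test (adjusted p = 0.0535).

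OsPP2C09 (LOC4327465), another clade A phosphatase, rose in TN1. It had 1986, 786 and 1176 in T24P, against 370, 359 and 377 in T24C, and even the lowest infested array was about 2-fold above the untreated ones. The log2 fold change was 1.73 ± 0.19 (SE, adjusted p = 1.46e-08) and 1.38 without T24P replicate 1. In RH it had 750, 651 and 765 in R24P, against 505, 532 and 423 in R24C. The RH groups also lay apart, but the log2 fold change of 0.57 (adjusted p = 0.0416) was under 2-fold.

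OsPP2C30 (LOC4332374), a clade A phosphatase that binds the rice ABA receptor PYL5 (RCAR5) and acts on SAPK2, was called in both varieties. It had 484, 413 and 497 in R24P, against 236, 264 and 199 in R24C. The 3 infested arrays were close to each other and above all untreated ones, with a log2 fold change of 1.00 ± 0.23 (SE, adjusted p = 0.0031). This call was lost without R24P replicate 1 (0.97), R24P replicate 3 (0.95) or R24C replicate 3 (0.89). In TN1 the values were 1526, 448 and 764 in T24P, against 212, 256 and 274 in T24C, again without overlap and with replicate 1 highest. The log2 fold change there was 1.71 ± 0.23 (SE, adjusted p = 5.57e-07) and 1.25 without that array.

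The 4 members outside clade A that rose in T24P/T24C did so by smaller amounts. OsPP2C59 (LOC4341949) had 193, 61.6 and 61.8 in T24P, against 35.9, 42.7 and 28.8 in T24C. Its rise was 1.35 ± 0.26 (SE, adjusted p = 8.13e-05). Without T24P replicate 1 the log2 fold change was 0.81 (adjusted p = 0.000978), under 2-fold. The untreated values were near the array medians. OsPP2C02 (LOC4326717) had 762, 400 and 487 in T24P, against 209, 227 and 256 in T24C, with a log2 fold change of 1.21 ± 0.16 (SE, adjusted p = 1.92e-07) and of 0.94 without T24P replicate 1. It was also higher in R24P (338, 340 and 422) than in R24C (252, 244 and 206), by 0.65 (adjusted p = 0.0039), which is under 2-fold. In both varieties all infested arrays of OsPP2C02 lay above all untreated ones.

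OsPP2C12 (LOC4328768) rose evenly over the infested arrays. It had 676, 582 and 588 in T24P, against 243, 282 and 299 in T24C. The log2 fold change was 1.17 ± 0.12 (SE, adjusted p = 2.09e-09), and it stayed at 1.10 without T24P replicate 1. In RH the same gene had 436, 355 and 395 in R24P, against 361, 354 and 291 in R24C, and there the groups overlapped (0.24, adjusted p = 0.183). The suffix s of this set marks probes shared with similar transcripts.

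OsPP2C48 (LOC4338531) was represented by 3 probe sets that differed in size of change. One unique set had 462, 328 and 358 in T24P, against 176, 186 and 183 in T24C, a rise of 1.06 ± 0.12 (SE, adjusted p = 1.72e-08) that fell under 2-fold, to 0.92, without T24P replicate 1. It was higher by 0.89 (adjusted p = 3.48e-06) in RH, where R24P had 428, 434 and 494 and R24C 240, 263 and 228. The other unique set, close to the array medians, had a log2 fold change of 0.42 in R24P/R24C and of 0.39 in T24P/T24C, and the dim set with suffix s had 0.04 and 0.23 in the same comparisons.

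T24P replicate 1 was the highest T24P array in all 7 of these members, and replicate 2 the lowest in all 7. Of the 34 members higher in T24P/T24C without the 2-fold minimum, replicate 1 was highest in 32, and of the 9 lower ones it was lowest in 7. Without replicate 1 the members called were OsPP2C68, OsPP2C09, OsPP2C30 and OsPP2C12, 4 of 72, while the share called higher over the array was 2.57%. Why this array stands apart was not tested.

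**Figure D2:**
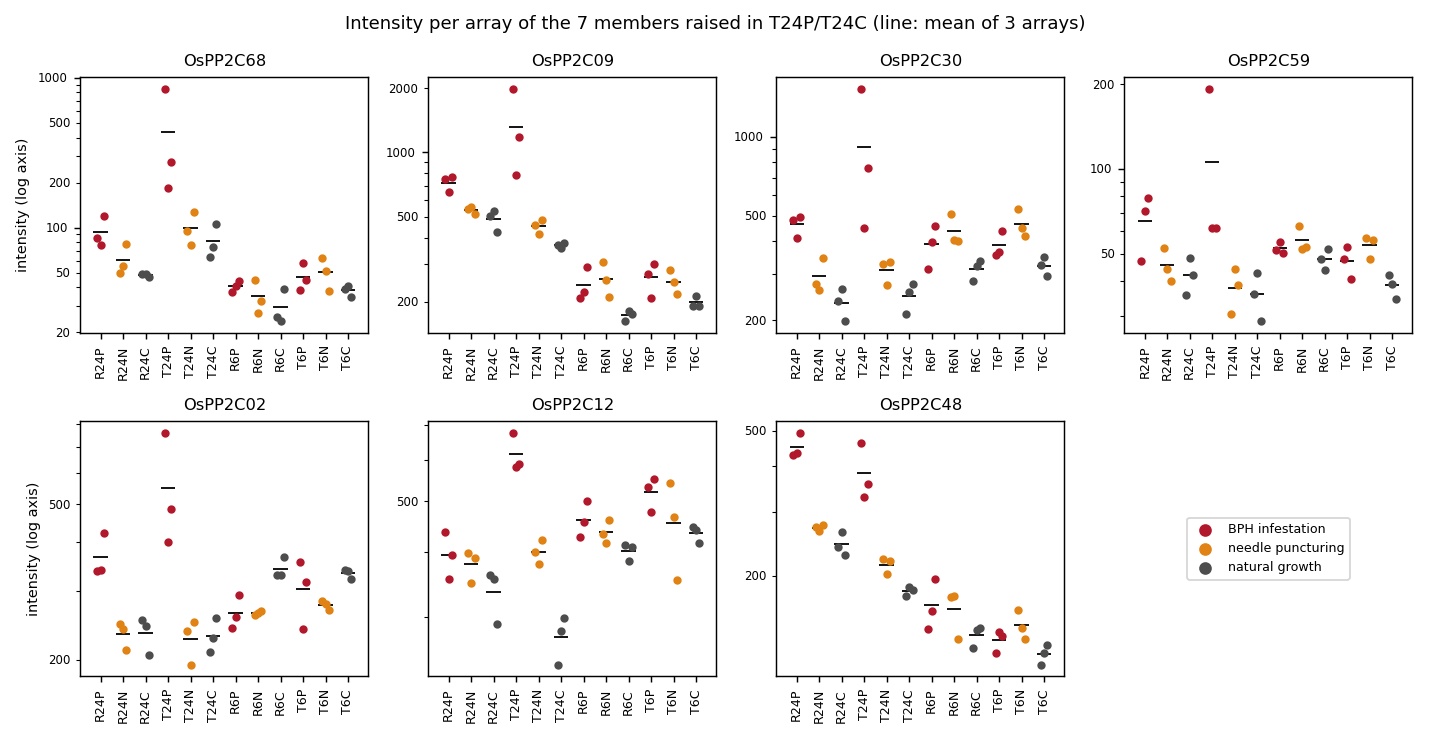
Intensity on a log axis (vertical) of the 7 members differential in T24P/T24C, in the 12 groups (horizontal axis: first letter variety, number hours, last letter treatment); each point is 1 array, coloured by treatment, and each bar the mean of 3. OsPP2C68 in T24P spreads from 185 to 847, above all 3 T24C arrays at 63.5 to 106, while OsPP2C12 in T24P lies between 582 and 676.

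Members just under the 2-fold minimum in T24P/T24C were chosen here after their values were seen. OsPP2C06, the clade A member also called ABIL1, had 2038, 1156 and 1402 in T24P, against 762, 721 and 840 in T24C. All infested arrays were higher, and the log2 fold change was 0.95 (adjusted p = 2.79e-07), or 0.72 without T24P replicate 1. OsPP2C29 followed with 0.93 (0.73 without that array). OsPP2C61, whose mean intensity of 20.2 is under the array medians, had 0.92, and without that array 0.47, which did not pass (adjusted p = 0.0507). The largest falls were those of OsPP2C07, at −0.73 and −0.60 for its 2 probe sets, and of OsPP2C13, also called DCW11 and linked to cytoplasmic male sterility, at −0.68. With that array left out these were −0.62, −0.48 and −0.57. None of the 9 members that were lower without a fold minimum reached 2-fold.

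At 6 h feeding moved the family very little. No member was called in R6P/R6C or T6P/T6C, where 0.316% and 0.309% of all probe sets were called higher and 0.0997% and 0.0192% lower. At an unadjusted limma p under 0.05 there were 15 members in R6P/R6C and 11 in T6P/T6C, where 17.9% and 14.4% of all probe sets passed. The extremes over the family were −0.74 and 0.51 in RH and −0.36 and 0.42 in TN1. Without the fold minimum OsPP2C14 was higher by 0.35 in R6P/R6C and OsPP2C39 (1 of 2 sets, by 0.74) and OsPP2C71 (1 set, by 0.42) were lower, all 3 named after their values were seen. The shares of all probe sets passing without the minimum were 1.36% higher and 1.71% lower in R6P/R6C, and 1.58% higher and 0.886% lower in T6P/T6C.

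Whether the infestation response went beyond that to a mechanical wound was asked with the punctured plants. Puncturing itself called no member in any of its 4 comparisons with natural growth, where 0.021% (R24N/R24C), 0.0542% (T24N/T24C), 0.177% (R6N/R6C) and 0.418% (T6N/T6C) of all probe sets were called. The largest absolute log2 fold change of any member was 0.55. At an unadjusted limma p under 0.05 there were 3, 2, 4 and 11 members in the same comparisons, beside 6.15%, 6.24%, 6.62% and 11.7% of all probe sets. Without the fold minimum, 2 members passed, OsPP2C12 in T24N/T24C (0.55, adjusted p = 0.049) and OsPP2C14 in T6N/T6C (0.44, adjusted p = 0.0022).

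Set directly against punctured plants of the same variety and time, 5 members were higher in infested plants, all in T24P/T24N. They were OsPP2C68 (1.84), OsPP2C09 (1.44), OsPP2C30 (1.38), OsPP2C59 (1.28) and OsPP2C02 (1.23), with limma adjusted p-values between 1.43e-07 and 0.000191, and 3.13% of all probe sets were called higher in this comparison. OsPP2C12 and OsPP2C48 were higher by 0.62 and 0.82, under 2-fold. OsPP2C12 had 400, 379 and 421 in T24N, values between those of T24P and T24C that overlapped with neither. Without T24P replicate 1 the calls were OsPP2C68 (1.20) and OsPP2C09 (1.09), with 2.18% of all probe sets called higher. No member was called in R24P/R24N, R6P/R6N or T6P/T6N, where 0.757%, 0.199% and 0.194% of all probe sets were called, and 30, 6 and 6 members had an unadjusted limma p under 0.05, beside 26.1%, 11.5% and 9.04% of all probe sets.

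The resistant and the susceptible variety were then compared in their response to BPH (the log2 response in RH less that in TN1), called at an adjusted p under 0.05 without a fold minimum. At 24 h the response differed for 10 probe sets of 8 genes. This count was unsteady, at 4 without T24P replicate 1, 6 without T24C replicate 1 or R24P replicate 2, 23 without T24P replicate 2 or with array weights, and 3 with only the 4 groups concerned in the fit. It was lower in RH for 8 sets of 6 genes (11.1% of the members, against 4.16% of all probe sets) and higher in RH for 2 (2.78%, against 5.39%). These shares were not matched for brightness. At 6 h it differed for no member (0.11% of all probe sets), and 7 had an unadjusted limma p under 0.05 (10.4% of all probe sets). For puncturing the response differed for no member at either time (0.014% of all probe sets at 6 h and 0% at 24 h), with 0 members at 6 h and 2 at 24 h under an unadjusted p of 0.05 (3.58% and 3.99% of all probe sets).

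**Figure D3:**
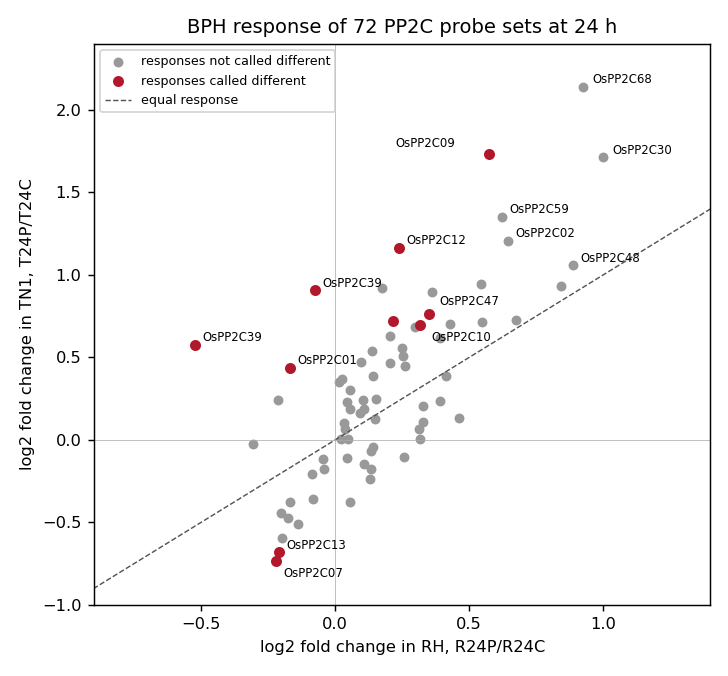
Log2 fold change of each of the 72 PP2C probe sets after 24 h of BPH infestation in RH (horizontal axis, R24P/R24C) and in TN1 (vertical axis, T24P/T24C); red points are the 10 sets whose responses were called different and the dashed line marks an equal response. OsPP2C68 and OsPP2C30 lie far above the line without being called, and both OsPP2C39 sets lie below 0 in RH (1 of them at −0.08) and above 0 in TN1.

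OsPP2C09 had the largest called difference, −1.16 ± 0.27 (SE, limma adjusted p = 0.0053), from 0.57 in RH and 1.73 in TN1. It was −0.81 (adjusted p = 0.0224) without T24P replicate 1, and with only the 4 groups concerned in the fit the adjusted p was 0.0863. OsPP2C12 differed by −0.93 ± 0.17 (SE, adjusted p = 0.000405). Its responses were 0.24 in RH and 1.17 in TN1, and the difference was −0.86 without T24P replicate 1.

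OsPP2C39 (LOC9271405) had 2 probe sets, 1 unique and 1 with suffix s. In both the log2 fold change was negative in RH, though only −0.08 in the s set, and positive in TN1. The unique set had 60, 53.7 and 76.6 in R24P, against 81.7, 104 and 86.4 in R24C, and the infested arrays were all the lower ones. In TN1 it had 120, 96.3 and 119 in T24P, against 70.9, 80.9 and 72.7 in T24C, and there the infested arrays were all the higher ones. Its responses were −0.52 in RH (adjusted p = 0.04) and 0.58 in TN1 (adjusted p = 0.0104), and they differed by −1.10 ± 0.25 (SE, adjusted p = 0.0036). Without T24P replicate 1 the TN1 response was 0.52, which did not pass (limma adjusted p = 0.0521). The s set had 564, 497 and 543 in R24P, against 500, 558 and 639 in R24C, and 1057, 845 and 801 in T24P, against 389, 474 and 591 in T24C. The RH groups overlapped and the TN1 groups did not. The responses differed by −0.98 ± 0.26 (SE, adjusted p = 0.0126), a call that was lost without T24P replicate 1 (−0.86, adjusted p = 0.0529) and without T24C replicate 1 (−0.83, adjusted p = 0.0532).

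Smaller called differences were those of OsPP2C01 (−0.60), both sets of OsPP2C47 (−0.51 and −0.41) and OsPP2C10 (−0.38), all with the lower response in RH. The 2 sets with the higher response in RH fell less there than in TN1. OsPP2C13 had log2 fold changes of −0.21 in RH and −0.68 in TN1, and the x set of OsPP2C07 had −0.22 in RH and −0.73 in TN1. The difference was not called for OsPP2C68 (−1.22 ± 0.46, SE, adjusted p = 0.101), OsPP2C30 (−0.71 ± 0.33, SE, adjusted p = 0.201) or OsPP2C59 (−0.73 ± 0.36, SE, adjusted p = 0.244). Without T24P replicate 1, 4 sets were called, those of OsPP2C01, OsPP2C09, OsPP2C12 and the unique set of OsPP2C39, with 2.53% of all probe sets called lower and 3.74% higher in RH.

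Each variety's BPH response was also compared between 24 and 6 h. In RH the response was greater at 24 h for 6 probe sets and lower for 0 (4.37% and 3.17% of all probe sets), and in TN1 greater for 24 and lower for 8 (10.1% and 10.4%). The TN1 counts were 18 and 5 without T24P replicate 1 (8.26% and 9.09%). OsPP2C68 gave the largest difference, 1.86 ± 0.46 (SE, adjusted p = 0.0033) in TN1, and its difference in RH was 0.42 (adjusted p = 0.606). OsPP2C02 passed in both varieties, at 1.02 in RH and 1.36 in TN1.

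Apart from treatment, 2 members marked the variety. OsPP2C16 and OsPP2C01 were higher in RH in all 6 conditions, 2.78% of the members, while 0.841% of all probe sets were higher in RH throughout. No member was lower in RH in all 6 conditions, against 0.941% of all probe sets. OsPP2C16 (LOC107276004) had 227, 271 and 288 in R24P, against 56.8, 66.4 and 54.3 in T24P. In natural growth it had 212, 208 and 209 in R24C, against 48.9, 53 and 69.1 in T24C, and 333, 347 and 372 in R6C, against 78.6, 78.6 and 80.8 in T6C. No RH array of OsPP2C16 came near any TN1 array.

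The mean log2 difference of OsPP2C16 over the 6 conditions, RH minus TN1, was 2.0 ± 0.05 (SE, adjusted p = 3.36e-26), and the 6 single differences ran from 1.81 to 2.15. BPH infestation left it within 0.31 of natural growth in every comparison, and the difference in its response between varieties at 24 h was not called (0.25, adjusted p = 0.423). Between 24 and 6 h its log2 fold change was −0.74 in R24C/R6C and −0.49 in T24C/T6C, both under 2-fold with an adjusted p under 0.05, and −0.28 (adjusted p = 0.0852) in R24P/R6P. The array was designed on reference sequence, and probes that pair less well with the sequence of 1 variety cannot be told apart from a difference in transcript.

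OsPP2C01 (LOC4324414) had 1760, 1572 and 1571 in R24P, against 721, 813 and 915 in T24P. In natural growth it had 1628, 1910 and 1978 in R24C, against 484, 626 and 711 in T24C, and 1111, 1046 and 1176 in R6C, against 435, 394 and 412 in T6C. The varieties did not overlap in any condition, with a mean log2 difference of 1.39 ± 0.05 (SE, adjusted p = 2.83e-22). The smallest difference was 1.01 in R24P/T24P, which was under 2-fold without T24P replicate 1 or without R24P replicate 1, so that OsPP2C16 was then the single member higher throughout. OsPP2C68 had a log2 fold change of −1.93 in R24P/T24P (adjusted p = 2.42e-05), where 2 members were called higher and 1 lower (2.83% and 2.98% of all probe sets), and was not called between varieties in the other 5 conditions.

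Sampling time moved more members than puncturing did. In the 4 series without insects, untreated and punctured plants of each variety, 4 probe sets of 3 genes were called in the same direction each time. OsPP2C39 was higher at 24 h with both of its sets, and OsPP2C27 and OsPP2C08 were lower, against 0.642% of all probe sets higher and 0.74% lower. Time since treatment and time of day cannot be told apart, and the untreated plants differed between the 2 times as well.

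OsPP2C27 (LOC4331028) has been tied to MAP kinase control in the cold response of rice. It had 156, 142 and 135 in R24C, against 367, 422 and 468 in R6C, and 130, 150 and 165 in T24C, against 371, 393 and 389 in T6C. The 24 h arrays were all the lower ones, by 1.53 ± 0.15 in RH and 1.38 ± 0.15 in TN1 (log2, SE, adjusted p = 1.1e-09 and 9.12e-09). In infested plants the falls were 1.31 (R24P/R6P) and 1.00 (T24P/T6P), both called. OsPP2C08 (LOC4324182) of clade A had 96.4, 99.6 and 78.1 in R24C, against 191, 207 and 226 in R6C, and 80.4, 79.5 and 98.8 in T24C, against 191, 196 and 184 in T6C. The log2 fold changes were −1.19 and −1.15. In infested plants they were −0.70 and −0.61, under 2-fold, and at 24 h OsPP2C08 was higher in infested than in untreated plants by 0.55 in RH and 0.71 in TN1.

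OsPP2C39 ran the other way. Its s set had 500, 558 and 639 in R24C, against 182, 174 and 159 in R6C, and 389, 474 and 591 in T24C, against 202, 160 and 203 in T6C. The log2 fold changes were 1.72 and 1.35, and for the unique set they were 1.17 and 1.35. The 24 h arrays of both sets lay above the 6 h arrays in every one of the 6 series. Other members called between the 2 times in natural growth were named after their values were seen. OsPP2C09 (1.48), OsPP2C10 (1.06) and OsPP2C29 (−1.05) changed in RH and OsPP2C68 (1.06) in TN1. In all, 4 sets were higher and 3 lower in R24C/R6C (1.09% and 1.59% of all probe sets), and 3 higher and 2 lower in T24C/T6C (1.22% and 1.48%).

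**Figure D4:**
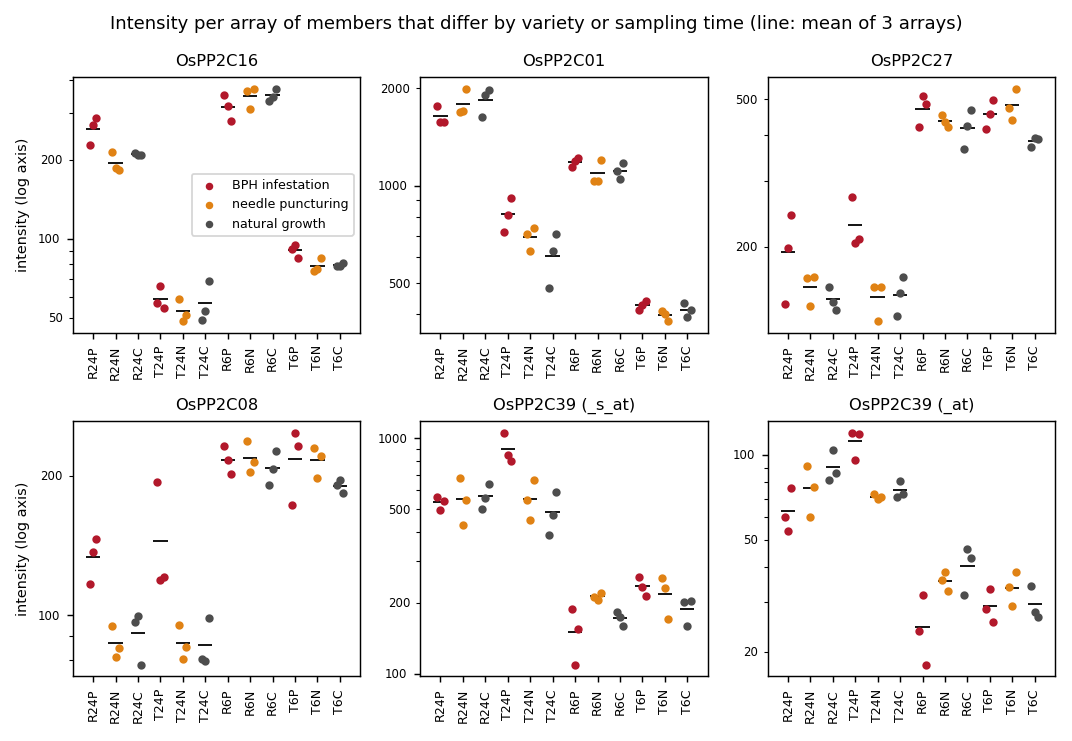
Intensity on a log axis (vertical) of 5 members that differed by variety or by sampling time, in the 12 groups (horizontal axis); points are arrays, coloured by treatment, and bars are means of 3. OsPP2C16 lies at 182 or more on every RH array and at 95 or less on every TN1 array, OsPP2C27 and OsPP2C08 are lower at 24 h, and both sets of OsPP2C39 are higher.

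Members with the smallest spread of group means among those above the array medians were OsPP2C70 (a range of 0.29 log2 units over the 12 groups), OsPP2C40 (0.31) and OsPP2C66 (LOC4345947, 0.32 for the first of 3 sets, with arrays at 290 to 458). They were chosen for that spread and are given as a description. OsPP2C40 (LOC4335989) had 809, 966 and 919 in R24P, against 814, 803 and 833 in R24C, and 691, 857 and 800 in T24P, against 915, 855 and 871 in T24C. Group means of OsPP2C70 (LOC4347831) ran from 554 in R24N to 678 in T24P. OsPP2C66 had further sets at 550 to 776 and, dim, at 19.6 to 40.5 over the 36 arrays.

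The pathway around the clade A members was followed through lists of named genes, with 1 probe set per gene, the brightest. The shares of all probe sets given beside the list counts were not matched for brightness. Among probe sets with a mean above all array medians, 5.85% were higher in T24P/T24C and 1.73% in R24P/R24C. The lists were written with earlier results of these data known, so their counts are a description and not an independent test. Of the 7 measured clade A genes 3 were higher in T24P/T24C and 1 in R24P/R24C, and none was lower, while 3.53% and 0.956% of all probe sets were called higher. The median log2 fold change was 0.55 in R24P/R24C and 0.95 in T24P/T24C, beside −0.03 over all probe sets in both. OsPP2C53, called ABIL2, had log2 fold changes of 0.04 in RH and 0.06 in TN1, and OsPP2C51, which acts in seed germination, 0.01 and 0.35 (0.11 and −0.15 in its other set). Of the 48 genes outside clade A, 4 were higher in T24P/T24C (beside the same 3.53%), with a median of 0.28, and none was called in R24P/R24C, with a median of 0.16. Without T24P replicate 1 the counts in T24P/T24C were 3 of 7 in clade A, with a median of 0.72, and 1 of 48 outside it, with a median of 0.25, beside 2.57% of all probe sets.

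Upstream of the phosphatases the lists held few genes, and little passed the threshold. They cover ABA perception and synthesis only in part, so the response of genes not listed is not given here. The 1 annotated receptor, PYL5, had log2 fold changes of 0.33 in R24P/R24C and 0.41 in T24P/T24C. Of the 2 genes of ABA synthesis, ABA1 (zeaxanthin epoxidase) and MCSU3 (a molybdenum cofactor sulfurase), none was called. Of the 2 genes of ABA breakdown, ABA8OX2, an ABA 8′-hydroxylase, had 656, 444 and 621 in T24P, against 210, 296 and 300 in T24C. Its arrays did not overlap, and the log2 fold change of 1.09 (adjusted p = 7.06e-06) was 0.98 without T24P replicate 1. The probe set has suffix s, which marks probes shared with similar transcripts. ABA8OX1 had 0.09 in the same comparison.

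Of the 10 SnRK2 kinases, SAPK1 to SAPK10, 2 were higher in T24P/T24C and none in R24P/R24C (3.53% and 0.956% of all probe sets). The medians were 0.16 in RH and 0.14 in TN1. The list takes in the whole family, and which of its members clade A phosphatases hold inactive was not tested. SAPK1 had 759, 344 and 465 in T24P, against 160, 150 and 147 in T24C, a rise of 1.70 (adjusted p = 2.1e-09) that was 1.39 without T24P replicate 1. SAPK6 rose by 1.20 in T24P/T24C (1.01 without that array). SAPK2, the partner of OsPP2C30, had −0.04 in R24P/R24C and 0.00 in T24P/T24C. Of the 2 bZIP factors, bZIP23 rose by 1.13 in T24P/T24C, and by 0.87, under 2-fold, without T24P replicate 1, and TRAB1 had 0.54.

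Among these lists, the genes that ABA and drying switch on moved most. This list too was written with earlier results known, and its count is a description. Of 12 such genes 11 were higher in T24P/T24C (median 2.45), and 2 in R24P/R24C (median 0.42), beside medians of −0.03 over all probe sets, of which 3.53% and 0.956% were called higher. RAB21, a dehydrin, had 301, 204 and 219 in R24P, against 97.7, 136 and 65.4 in R24C, and 7956, 1840 and 3912 in T24P, against 81, 73.3 and 73.4 in T24C. The groups were apart in both varieties, with log2 fold changes of 1.32 (adjusted p = 0.013) in RH and 5.67 (adjusted p = 4.15e-13) in TN1, and of 1.44 and 6.41 in its other set. LEA19, a late embryogenesis abundant protein read from a set with suffix s, rose by 1.34 in RH and 4.81 in TN1. HOX24, a homeodomain factor, rose by 4.59 and PM19L, a membrane protein, by 3.94 in TN1, where the other PM19L set had 0.50. Untreated values of LEA19, HOX24 and PM19L lay under the array medians. Osem was the 1 gene of the list not called, at −0.02 in T24P/T24C. With T24P replicate 1 left out the count was 10 of 12 and the median 1.91 (2.57% of all probe sets), and the log2 fold changes in TN1 were 5.14 for RAB21, 4.01 for LEA19, 3.74 for HOX24 and 3.03 for PM19L.

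MAP kinases are substrates of PP2Cs of other clades. Of 15 genes 2 were higher in T24P/T24C and none in R24P/R24C, beside 3.53% and 0.956% of all probe sets. MPK13 had 492, 282 and 320 in T24P, against 102, 102 and 94.3 in T24C, a rise of 1.83 (1.60 without T24P replicate 1). MPK5, which is induced by pathogens and wounding, rose by 1.42 (1.27 without that array). The upstream kinase MKK1 had 0.47 in T24P/T24C, under 2-fold.

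**Figure D5:**
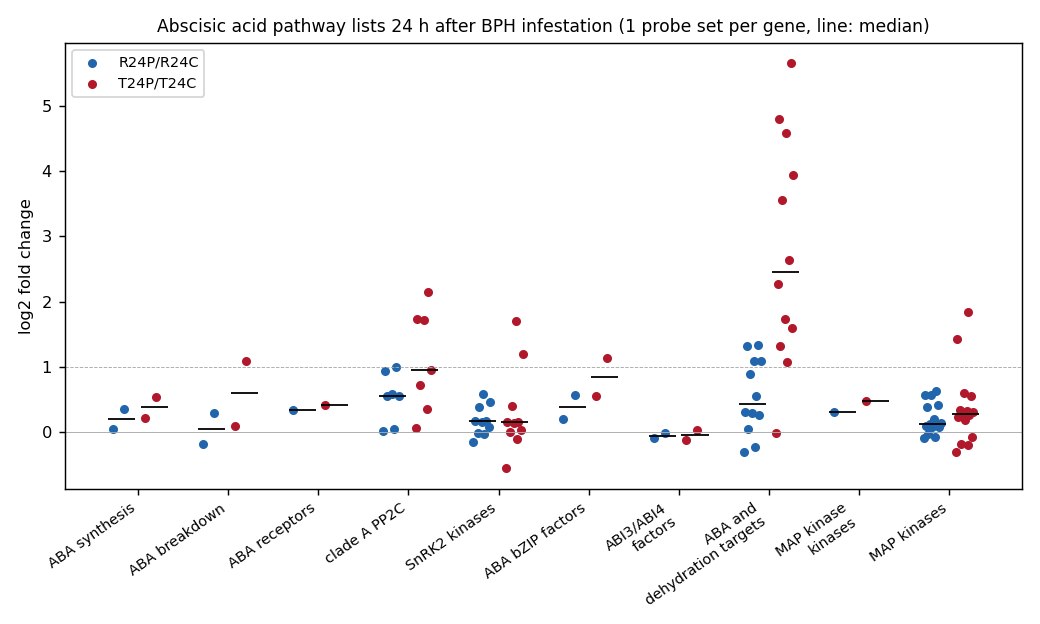
Log2 fold change (vertical axis) after 24 h of BPH infestation of genes in lists along the ABA pathway and of MAP kinases (horizontal axis, 1 probe set per gene), in RH (blue, R24P/R24C) and TN1 (red, T24P/T24C); black bars are medians and the dashed line a 2-fold rise. The ABA and dehydration targets reach 5.67 in TN1 and 1.34 in RH, and clade A PP2C genes reach 2.14 in TN1 and 1.00 in RH.

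The responses of the 10 named pathway genes were also compared between varieties at 24 h. These genes were named for their change under BPH infestation, which enters this comparison, so the values are a description. Over the array 4.16% of probe sets had a lower response in RH and 5.39% a higher one. Among the SnRK2 kinases not named here, 1 was called with a higher response in RH (1 as well without T24P replicate 1). The highest difference in that list was 0.71. The log2 response of RH was lower than that of TN1 for RAB21 (−4.35), HOX24 (−3.51), LEA19 (−3.47), PM19L (−3.39), SAPK1 (−1.32), MPK13 (−1.28), ABA8OX2 (−0.81) and SAPK6 (−0.61), with limma adjusted p-values between 2.35e-06 and 0.0322. The difference was not called for bZIP23 (−0.57, adjusted p = 0.0506) or MPK5 (−0.80, adjusted p = 0.0596). Without T24P replicate 1 those of ABA8OX2 (−0.70) and SAPK6 (−0.43) were not called, and those of RAB21 (−3.83), LEA19 (−2.67), HOX24 (−2.66) and PM19L (−2.48) were. The GLUA-2 set at 203 to 730 was higher in T24P as well (1.05 in T24P/T24C, 1 of 7 storage genes called higher), and with T24P replicate 1 left out no storage gene was called. The part of seed-type transcripts in the results was not tested.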

How the data were processed

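Labels gave each of the 36 arrays its variety, treatment, time and replicate number. The authors deposited normalized intensity values on a linear scale for 57194 probe sets, and the submitters' processing notes name RMA and affy without versions. Intensities were log2-transformed without further normalization or filtering. No deposited column was left without a sample, and no arrays held identical values.

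The limma 3.58.1 model (R 4.3.3) with 1 mean per group was fitted to all 36 arrays, which gave 24 residual and 6.16 prior degrees of freedom. P-values were adjusted over all probe sets (Benjamini-Hochberg). Differential meant an adjusted p under 0.05 and at least 2-fold, and differences between responses had no fold minimum. The methods of the study name a one-way ANOVA, which was run as an alternative. Each probe set has 1 variance estimate for all groups, and its SE is therefore not specific to the groups compared. P-values measure the spread between replicate pots, and precision is limited by having 3 arrays per group.

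Synonyms of genes came from a RefSeq gene table, matched by gene identifier, which held 60 genes named PP2C, 5 of them without a single-gene probe set. The members and lists were chosen with earlier results of these data known. Members were named by rule. OsPP2C16 was named, with members differential under BPH infestation (up to 10), the largest called differences in response (up to 4), members differential between varieties in all 6 conditions (up to 4) or between times in 4 series (up to 3), and the 3 with the smallest spread of group means. From each pathway list up to 4 genes differential under BPH infestation were named. TRAB1, which has the synonym aba1, was kept out of the ABA synthesis list, GT2, GT3 and GLB out of the seed storage list, and a gene named both MEK1 and WNK1 out of the MAP kinase kinases, because these names do not settle the gene. The root list had 0 measured genes. Of 2 ABI3/ABI4-type factors, 0 were differential under BPH infestation.

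On simulated data for T24P/T24C over 57194 probe sets, limma called 41% of 100 probe sets changed 2-fold, a change at the threshold itself, and 100% of 100 changed 4-fold, with 0 false calls. Alternatives were array weights, quantile normalization, centring on array medians, a trended and robust eBayes fit, a replicate block, a filter on dim probe sets (mean log2 intensity under 6), no fold minimum, only the groups compared, the ANOVA, and leaving out each array in turn. The expressed-only background and the values of lists and of the whole family without T24P replicate 1 were added after the data were seen.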

Additional observations from a re-analysis of the deposited data

Results flagged for a closer look

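A different response to BPH in the 2 varieties at 24 h, tested as RH minus TN1 in limma, marked 10 PP2C probe sets. The log2 difference was −1.16 for OsPP2C09 (adjusted p = 0.0053), −1.10 and −0.98 for the 2 sets of OsPP2C39, −0.93 for OsPP2C12 and −0.60 for OsPP2C01. It was −0.51 and −0.41 for the 2 sets of OsPP2C47, −0.38 for OsPP2C10, 0.47 for OsPP2C13 (adjusted p = 0.0498) and 0.51 for the x set of OsPP2C07.

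The same test marked 8 of the 10 named pathway genes, all lower in RH, beside 4.16% of all probe sets lower and 5.39% higher. The genes were named for their change under BPH infestation, which enters this test, so the count is a description. The differences were −4.35 for RAB21, −3.51 for HOX24, −3.47 for LEA19, −3.39 for PM19L, −1.32 for SAPK1, −1.28 for MPK13, −0.81 for ABA8OX2 and −0.61 for SAPK6. Of the SnRK2 kinases that were not named, 1 was called higher in RH. A BPH response at 24 h that differed from that at 6 h marked 6 member probe sets in RH and 32 in TN1, which is the difference of both times' responses tested within each variety.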

How the results depend on the processing

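No value of a single member reversed direction under the alternatives run. Several of these, such as the ANOVA and the setting without a fold minimum, keep the main fold changes and could not reverse one. The counts carry no direction. T6P/T6C and the difference in response at 6 h gave 0 members throughout. Without a fold minimum the counts were 43 for T24P/T24C (7 in the main analysis), 20 for R24P/R24C (1), 3 for R6P/R6C (0), 2 for puncturing (0), 54 for BPH against puncturing (5), 4 for variety (2) and 14 for time (4). With a 2-fold minimum the difference in response at 24 h gave 2 in place of 10. Array weights gave 2 for R24P/R24C, 1 for variety and 23 for the difference in response, and fitting only the groups compared gave 3 for that difference. Quantile normalization gave 0 for R24P/R24C, and the filter on dim sets gave 3 for BPH against puncturing, with fewer sets tested. The one-way ANOVA of the methods gave 2 for BPH against puncturing at an unadjusted p, and after adjustment 2 for T24P/T24C, 0 for R24P/R24C and 0 for BPH against puncturing. The cause of these shifts was otherwise not tested. Centring moved the median of all probe sets by at most 0.084 and quantile normalization by at most 0.045 log2 units.

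Leaving out 1 array at a time, the counts ran from 4 to 10 for T24P/T24C, from 0 to 1 for R24P/R24C, from 2 to 7 for BPH against puncturing, from 1 to 2 for variety, from 3 to 4 for time and from 4 to 23 for the difference in response at 24 h. The last was 4 without T24P replicate 1, 6 without T24C replicate 1 or R24P replicate 2, and 23 without T24P replicate 2. It was 0 each time for R6P/R6C, T6P/T6C, puncturing and the difference at 6 h. Replicate numbers were not used as pairs in the main analysis. Arrays with the same number had a median correlation of −0.015 in their deviations from the group means. Single pairs ran from −0.48 to 0.437, so the median cannot exclude pairing within some groups. With the replicate number as a block the counts were 7 for T24P/T24C, 1 for R24P/R24C and 8 for the difference in response at 24 h. Of the values of single members, 190 kept their call under other settings and 13 fell short of the threshold, and with an array left out 208 kept it and 8 fell short. Without detection calls, changes read against dim probe sets may be understated.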
